A study of Mus musculus with 11 samples.

Results

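mmu-miR-143-3p, mmu-miR-145a-5p, mmu-miR-199a-3p, mmu-miR-199a-5p and mmu-miR-214-3p, named without the species prefix from here on, are microRNAs (miRNAs) of smooth muscle and stroma. Their levels were followed across mouse gametes and early embryos, with sperm from males with or without a germ line knockout of a miRNA-processing enzyme. The 5 were taken by name, and all 5 were found among the 2304 rows of the deposited count table, of which 1592 were miRNAs. Reads of small RNAs had been counted in 11 libraries from mice of the C57BL/6 strain, described as adult. Cauda epididymal sperm gave 2 libraries from Dicer cKO males, 3 from Drosha cKO males and 2 from wild-type (WT) males, where cKO stands for a germ line conditional knockout made with flox and Cre lines; which Cre line was used is not given by the labels. Embryos at the 2PN (pronuclear) stage, made by injecting a single sperm into an oocyte, gave 1 library each with Dicer cKO, Drosha cKO and WT sperm, and oviductal oocytes of superovulated WT females gave 1 library. Whether replicate sperm libraries stem from different males is not stated in the labels, and the p-values therefore measure only the spread between these samples, which may be technical. Sperm pellets can carry other cells of the epididymis, and in such bulk RNA fewer cells of a type and less RNA per cell cannot be told apart.

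A miRNA is cut from a hairpin in its primary transcript by Drosha in the nucleus and then by Dicer in the cytoplasm, and the base-paired arms of the hairpin give a 5p and a 3p product. miR-143 and miR-145a come from neighbouring hairpins of a shared primary transcript that is abundant in smooth muscle, where miR-145 favours the contractile state of the cell. miR-214 and a copy of miR-199a come from hairpins within a shared non-coding transcript, Dnm3os, that is expressed in mesenchyme and fibroblasts. These miRNAs are commonly read as signs of muscle and connective tissue and are low in most epithelia and blood cells.

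The hairpins of miR-143 and miR-145a lie 1301 bases apart in the RefSeq annotation of GRCm38, the assembly that corresponds to the mm10 build named by the submitters. The Mir199a-2 hairpin (chromosome 1, 162217814 to 162217923, plus strand) and the Mir214 hairpin (chromosome 1, 162223368 to 162223477, plus strand) both lie within the annotated spans of the long non-coding RNA gene Dnm3os and of the protein-coding gene Dnm3, with 5444 bases between them. A further copy, Mir199a-1, lies within the span of Dnm2 (chromosome 9, 21496495 to 21496564, minus strand). Mir199b lies within that of Dnm1 (chromosome 2, 32318460 to 32318569, plus strand).

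The mature sequences of miR-199a, miR-214 and their relatives are shown because some of them cannot be assigned to a single hairpin. They are RNA, written 5′ to 3′, from RefSeq on GRCm38.p6, with the seed (bases 2 to 8, which pair with targets) in capitals.
miR-199a-3p: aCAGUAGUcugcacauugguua
miR-199b-3p: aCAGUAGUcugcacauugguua
miR-199a-5p: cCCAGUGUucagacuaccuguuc
miR-214-3p: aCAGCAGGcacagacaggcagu
miR-214-5p: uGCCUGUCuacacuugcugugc
miR-199a-3p and miR-199b-3p were identical over all 22 bases, so reads listed as miR-199a-3p could come from any of the 3 hairpins Mir199a-1, Mir199a-2 and Mir199b. miR-199a-5p could come from either of the first pair. Among the 1679 mature miRNAs named in the sequences used, miR-761 was the only other one found with the seed of miR-214-3p. That set is incomplete, as it holds no sequence for miR-143 or miR-145a. Whether relatives such as miR-199b-5p share the seed of miR-199a-5p is therefore not judged from it. The seeds of the 3 members shown all differed from each other.

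Listed reads, the sum of all rows of the count table, numbered 108141 to 122989 in Dicer cKO sperm, between 12003 and 100934 in Drosha cKO sperm, 73377 and 278890 in WT sperm, and 2951 to 8967 in the 2PN and oocyte libraries. They made up 0.196% to 10.1% of the library size the authors divided by. Levels are given in CPM, counts per 1000000 listed reads; a count of 0 allows up to 3 reads, which corresponds to 10.8 to 249.9 CPM in sperm and 334.6 to 1016.6 CPM in the embryo and oocyte libraries. These limits, like all intervals on reads here, cover counting error only, since PCR copies of a molecule were counted as reads. Replicates differed beyond counting error in every sperm pair (chi-square per degree of freedom 5.74 to 42.0). The sperm label was checked against 10 male germ cell miRNAs such as miR-34c-5p. They summed to 0.855% and 0.892% of listed reads in Dicer cKO sperm, between 1.44% and 2.52% in Drosha cKO sperm, and 16.8% and 18.6% in WT sperm. Being miRNAs, these markers can check the label only in WT sperm. In cKO sperm a loss of processing and fewer germ cells cannot be told apart by them. In the 2PN and oocyte libraries the same 10 summed to at most 0.0925%, and no marker list was used for those labels. Messenger RNA was not measured, so the knockouts themselves could not be checked from these data.

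All 5 miRNAs were detected in every sperm library, and they occupied an unequal and ordered range of levels. miR-145a-5p was the most abundant in each of the 7 sperm libraries and miR-199a-3p came next in each of them. miR-145a-5p held 56.8% and 72.8% of the reads of the 5 miRNAs in Dicer cKO sperm, between 41.5% and 71.8% in Drosha cKO sperm, and 41.0% and 56.1% in WT sperm. In the second WT library the first and the next in this order were close, at 1291 CPM for miR-145a-5p and 1180 CPM for miR-199a-3p. Below these, the order changed with the library: miR-143-3p led the remaining members in 6 of the 7, and miR-214-3p led them in WT replicate 1. The mature forms of miR-199a and miR-214 shown above are 22 or 23 bases long, and no sequence was at hand for miR-143 or miR-145a. These comparisons order reads, and whether molecules follow the same order was not tested.

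Together the 5 took 1.87% and 2.61% of listed reads in Dicer cKO sperm, between 1.08% and 1.69% in Drosha cKO sperm, and 0.315% and 0.795% in WT sperm. The groups did not overlap on this scale. On the scale of the authors' RPM (reads per 1000000 of their own library size), the sum was 1155 and 1313 in Dicer cKO sperm, between 293 and 455 in Drosha cKO sperm, and 171 and 317 in WT sperm, where the lowest Drosha cKO library lay below the higher WT library. Both scales describe a share of a library and neither measures molecules per sperm.

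The authors' RPM scale ordered some members differently. miR-145a-5p had 841 and 746 RPM in Dicer cKO sperm, 327, 131 and 150 RPM in Drosha cKO sperm, and 96.1 and 129.8 RPM in WT sperm. miR-143-3p had 77.7 and 163 RPM in Dicer cKO sperm, 44.9, 38.8 and 33.1 RPM in Drosha cKO sperm, and 12.6 and 32.1 RPM in WT sperm. For both, the Dicer cKO libraries were above the rest, with a narrower gap for miR-143-3p (77.7 beside 44.9 RPM). The lowest Drosha cKO library was only just above the higher WT library for both. miR-199a-3p had 164 and 305 RPM in Dicer cKO sperm, 46.2, 89.7 and 79.6 RPM in Drosha cKO sperm, and 40.8 and 119 RPM in WT sperm. miR-199a-5p had 43.2 and 68.7 RPM in Dicer cKO sperm, 12.8, 29.1 and 11.9 RPM in Drosha cKO sperm, and 8.81 and 23.1 RPM in WT sperm. The Drosha cKO and WT libraries overlapped for both miR-199a arms. miR-214-3p had 28.4 and 30.5 RPM in Dicer cKO sperm, 24.6, 26.7 and 18.6 RPM in Drosha cKO sperm, and 12.9 and 13.0 RPM in WT sperm. On this scale the 3 groups did not overlap for miR-214-3p and Dicer cKO sperm was the highest. In CPM its Dicer cKO libraries overlapped WT and lay below Drosha cKO. The share of all features without overlap was not computed in RPM. With the authors' library size as divisor, all features tested had a median log2 change of 0.88 in Dicer cKO against WT sperm. Against Drosha cKO sperm this median was 0.90. The high place of Dicer cKO sperm in RPM is therefore not read as particular to miR-214-3p.

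**Figure D1:**
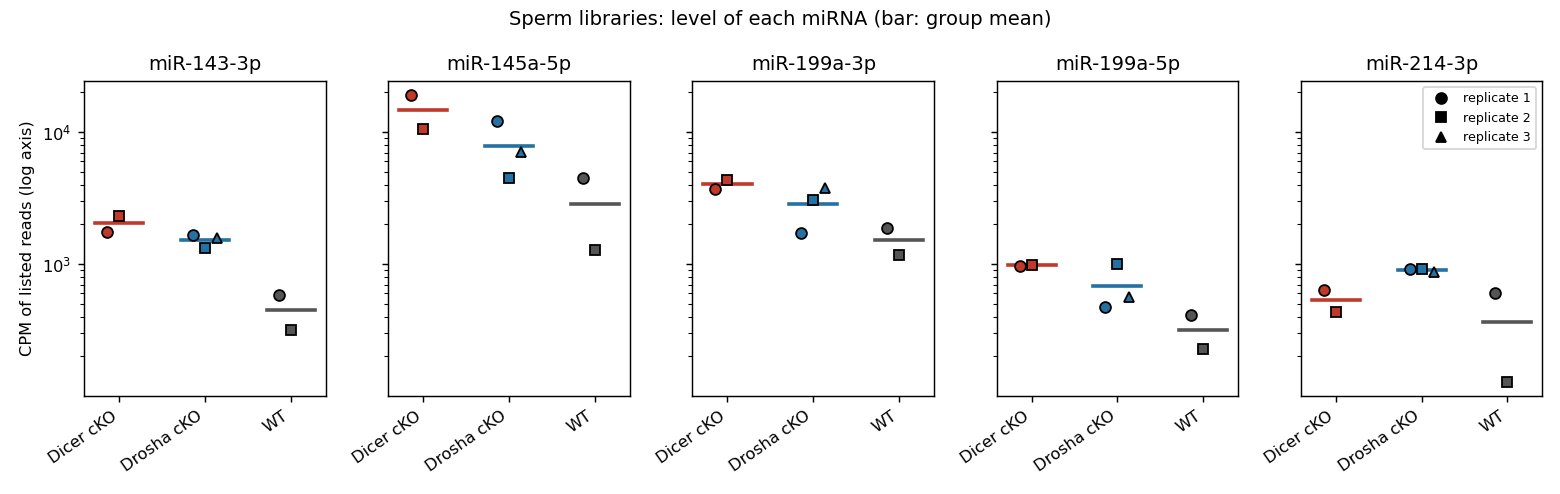
Level of each miRNA in the 7 sperm libraries, in CPM on a log axis; each point is a library, shaped by replicate number, and each bar is the group mean. The 2 Dicer cKO libraries lie above the 2 WT libraries for miR-143-3p, miR-145a-5p and both miR-199a arms, and overlap them for miR-214-3p.

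Dicer cKO and WT sperm were compared to ask how removing the cytoplasmic enzyme from the germ line alters the small RNAs of sperm. miR-143-3p and miR-145a-5p, the smooth muscle pair, rose in Dicer cKO sperm, by 1.58 and 1.90 on the log2 scale. Neither miR-199a arm nor miR-214-3p passed the test. Of the 5 members, 2 were called higher and 0 lower. Of all 335 features tested, 158 were called (47.2%), with 54 higher (16.1%) and 104 lower (31%). With library totals in place of TMM this split was 101 higher and 91 lower. The median log2 change of the 5 was 1.01, beside 0.03 over all features tested.

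miR-145a-5p, which favours the contractile smooth muscle state, had 2337 and 1151 reads in Dicer cKO sperm, which is 19002 and 10644 CPM, against 327 and 360 reads in WT sperm, which is 4456 and 1291 CPM. Both Dicer cKO libraries were above both WT libraries, and within each group the higher CPM was that of replicate 1. The mean was 14823 ± 5910 CPM in Dicer cKO sperm and 2874 ± 2238 CPM in WT sperm (SD, n = 2 each). Its fitted log2 change, which uses edgeR's TMM scaling and not CPM, was 1.90 (SE 0.587, 95% interval 0.66 to 3.14, edgeR adjusted p = 0.0142). The call was lost without WT replicate 2 (log2 change 0.99, edgeR adjusted p = 0.160), without Dicer cKO replicate 1 (0.95, edgeR adjusted p = 0.402) and without the shallow Drosha cKO replicates 2 and 3, which share the spread estimate (1.54, edgeR adjusted p = 0.0617). It held in the other 15 of 18 alternatives.

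miR-143-3p, its neighbour, had 216 and 251 reads in Dicer cKO sperm, which is 1756 and 2321 CPM, against 43 and 89 reads in WT sperm, which is 586 and 319 CPM. The groups did not overlap, and the lower Dicer cKO library was 1756 CPM beside 586 CPM in the higher WT library. Its mean was 2039 ± 399 CPM in Dicer cKO sperm and 453 ± 189 CPM in WT sperm (SD, n = 2 each), and its fitted log2 change was 1.58 (SE 0.589, 95% interval 0.33 to 2.83, edgeR adjusted p = 0.0369). This call was the less stable of the pair: it was lost in 8 of 18 alternatives, among them each that left out a single WT or Dicer cKO library (highest edgeR adjusted p = 0.368, without Dicer cKO replicate 2; 0.150 and 0.309 without WT replicates 1 and 2; 0.311 without Dicer cKO replicate 1).

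miR-199a-3p, the second most abundant, had 3716 and 4346 CPM in Dicer cKO sperm against 1894 and 1180 CPM in WT sperm. Its fitted log2 change was 0.77 (SE 0.550, 95% interval -0.40 to 1.93, edgeR adjusted p = 0.266). The other arm of the same hairpins, miR-199a-5p, had 976 and 980 CPM in Dicer cKO sperm against 409 and 230 CPM in WT sperm. The fit gave 1.01 (SE 0.631, 95% interval -0.32 to 2.35, edgeR adjusted p = 0.198). For both arms the 2 groups did not overlap in CPM, yet neither change passed the test. In CPM 4 of the 5 members lay higher in Dicer cKO sperm without overlap, beside 46.3% of all features tested; 0 of the 5 lay lower, beside 34.9%. With library totals in place of TMM both arms were called (edgeR adjusted p = 0.0364 for miR-199a-3p and 0.0379 for miR-199a-5p), and with only the 2 groups in the fit miR-199a-3p was called (edgeR adjusted p = 0.0336).

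miR-214-3p, transcribed together with the Mir199a-2 hairpin, stood apart from the other members in having overlapping groups. It had 642 and 435 CPM in Dicer cKO sperm, from 79 and 47 reads, against 600 and 129 CPM in WT sperm, from 44 and 36 reads. Its fitted log2 change was 0.16 (SE 0.664, 95% interval -1.25 to 1.57, edgeR adjusted p = 0.852), and its sign turned in 6 of 18 alternatives. The interval spans changes in either direction of more than 1 log2 unit, so these data set only wide limits on it.

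The choice of scaling moved all features together. The median log2 change over all features in Dicer cKO against WT sperm was 0.03 with TMM, -0.12 with DESeq2 size factors, 0.62 with library totals and 0.88 with the authors' library divisor. Relative to that median, miR-145a-5p changed by 1.87 in the TMM fit and by 1.31 to 3.76 over the alternatives, and miR-143-3p by 1.54, with 1.42 to 3.38 over the alternatives. Both stayed above the median of all features in 18 of 18 alternatives, as did miR-199a-3p (0.74; 0.66 to 2.59) and miR-199a-5p (0.98; 0.88 to 2.85). For miR-214-3p the difference from the median was 0.13, and it ran from -0.52 to 1.99.

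**Figure D2:**
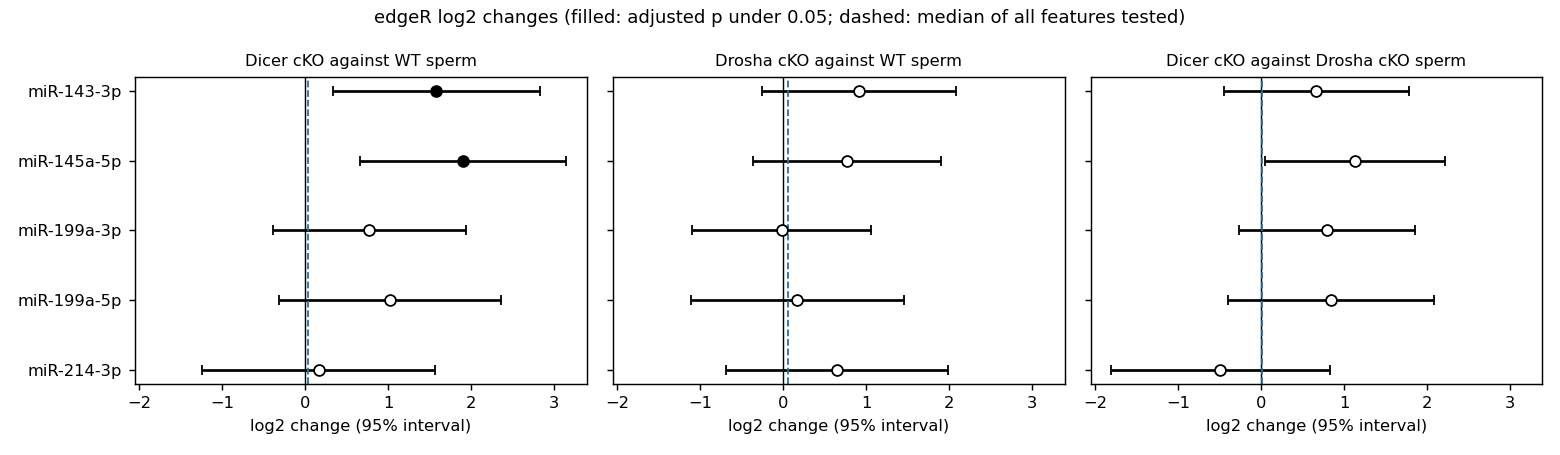
Fitted log2 changes of the 5 miRNAs in the 3 sperm comparisons, with 95% intervals from edgeR; filled points passed the adjusted threshold of 0.05 and the dashed line is the median of all 335 features tested. miR-143-3p and miR-145a-5p passed in Dicer cKO against WT sperm, at 1.58 and 1.90, and no miRNA of the 5 passed in the other comparisons.

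The comparison of Drosha cKO with WT sperm asks the same of the nuclear enzyme. No member was called in either direction by edgeR, and 0 had an unadjusted p under 0.05; DESeq2 and limma also called 0. Over all features tested, 185 were called (55.2%), with 74 higher (22.1%) and 111 lower (33.1%). With library totals in place of TMM the split was 134 higher and 89 lower, and with the authors' library divisor 23 higher and 101 lower. The median of the 5 was 0.65, beside 0.05 over all features. With library totals miR-143-3p and miR-145a-5p were called (edgeR adjusted p = 0.0114 and 0.0302).

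miR-143-3p had 1664, 1333 and 1570 CPM in Drosha cKO sperm against 586 and 319 CPM in WT sperm, with no overlap. Its fitted log2 change was 0.91 (SE 0.552, 95% interval -0.26 to 2.08, edgeR adjusted p = 0.169). Leaving out 1 library moved this value between 0.27, without Dicer cKO replicate 1, and 1.11, without Drosha cKO replicate 2. miR-145a-5p had 12127, 4499 and 7098 CPM in Drosha cKO sperm against 4456 and 1291 CPM in WT sperm. The groups were separated by only the small gap between 4499 and 4456 CPM, and the fitted log2 change was 0.77 (SE 0.533, 95% interval -0.36 to 1.90, edgeR adjusted p = 0.232).

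miR-214-3p had the tightest values of the 5 in Drosha cKO sperm, at 911, 916 and 879 CPM, from 92, 11 and 14 reads, against 600 and 129 CPM in WT sperm. The 3 Drosha cKO libraries lay within each other's counting intervals and above both WT libraries. Its fitted log2 change was 0.65 (SE 0.631, 95% interval -0.69 to 1.99, edgeR adjusted p = 0.400). miR-199a-3p had 1714, 3083 and 3769 CPM in Drosha cKO sperm against 1894 and 1180 CPM in WT sperm, and replicate 1 fell inside the WT range. The fit gave -0.02 (SE 0.507, 95% interval -1.10 to 1.05, edgeR adjusted p = 0.971). miR-199a-5p had 476, 1000 and 565 CPM in Drosha cKO sperm, from 48, 12 and 9 reads, against 409 and 230 CPM in WT sperm, with a fitted log2 change of 0.17 (SE 0.604, 95% interval -1.11 to 1.45, edgeR adjusted p = 0.826). In CPM 4 of the 5 members lay higher in Drosha cKO sperm without overlap, beside 42.1% of all features, and 0 lay lower, beside 30.1%.

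Drosha cKO replicate 1 was the highest Drosha cKO library for miR-145a-5p, at 12127 CPM beside 4499 and 7098 CPM in replicates 2 and 3. This was not particular to it, since replicate 1 was also the higher in Dicer cKO sperm (19002 against 10644 CPM) and in WT sperm (4456 against 1291 CPM). For miR-143-3p it had 1664 CPM beside 1333 and 1570 CPM. It stood apart in the striated muscle miRNA miR-1a-3p, a miRNA of cardiac and skeletal muscle, with 5241 CPM beside 167 and 754 CPM. Dicer cKO sperm had 675 and 416 CPM of miR-1a-3p, and WT sperm had 123 and 86.1 CPM. Both miR-199a arms were lowest in Drosha cKO replicate 1 among the Drosha cKO libraries. Without Drosha cKO replicate 1 the fitted change of miR-199a-3p was 0.41 in place of -0.02, and still did not pass the test (edgeR adjusted p = 0.504).

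Dicer cKO and Drosha cKO sperm were compared directly in the same fit. No feature of 335 was called (0%), with 65 at an unadjusted p under 0.05; DESeq2 called 16 and limma 2. Among the members, miR-145a-5p had the largest difference, at 1.13 (SE 0.512, 95% interval 0.05 to 2.22, edgeR adjusted p = 0.237), with 19002 and 10644 CPM in Dicer cKO sperm against 12127, 4499 and 7098 CPM in Drosha cKO sperm. These ranges overlapped. It was the single member with an unadjusted p under 0.05, and without WT replicate 1 it was called (1.54, edgeR adjusted p = 0.0169). miR-143-3p differed by 0.66, miR-199a-3p by 0.79 and miR-199a-5p by 0.84, with edgeR adjusted p of 0.487, 0.391 and 0.425. miR-214-3p went the other way, at -0.49 (SE 0.622, 95% interval -1.81 to 0.83, edgeR adjusted p = 0.665). It was the only member whose CPM lay lower in Dicer cKO than in Drosha cKO sperm without overlap, which 23.9% of all features did; miR-143-3p lay higher without overlap, as did 15.2% of all features. The Dicer and Drosha comparisons share the WT libraries, so their values are not independent.

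Ratios of reads within a library need no scaling between libraries, and they showed which members kept a fixed proportion. For miR-145a-5p over miR-143-3p, from neighbouring hairpins, the ratio was 10.8 and 4.59 in Dicer cKO sperm, 7.29, 3.38 and 4.52 in Drosha cKO sperm, and 7.60 and 4.04 in WT sperm. The groups overlapped, whereas the ratio was highest in replicate 1 of each group, and the 95% exact intervals of replicates 1 and 2 did not meet in Dicer cKO sperm (9.41 to 12.5 against 4.00 to 5.28) or in WT sperm (5.52 to 10.7 against 3.20 to 5.16). What sets replicate 1 apart in each group was not tested.

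The ratio of the arms of miR-199a differed little between groups. miR-199a-3p over miR-199a-5p was 3.81 and 4.43 in Dicer cKO sperm, 3.60, 3.08 and 6.67 in Drosha cKO sperm, and 4.63 and 5.14 in WT sperm, and the 95% exact intervals of all 7 libraries overlapped. The mean log2 ratio was 2.03 ± 0.155 in Dicer cKO sperm (SD, n = 2), 2.03 ± 0.568 in Drosha cKO sperm (SD, n = 3) and 2.27 ± 0.113 in WT sperm (SD, n = 2). miR-199b-5p, the 5p product of the hairpin whose 3p product is identical to miR-199a-3p, was about as abundant as miR-199a-5p, at 127 and 69 reads in Dicer cKO sperm, 75, 5 and 13 in Drosha cKO sperm, and 39 and 72 in WT sperm. The ratio of these 5p forms was 1.06 and 0.651 in Dicer cKO sperm, 1.56, 0.417 and 1.44 in Drosha cKO sperm, and 1.30 and 1.12 in WT sperm. How reads shared by such near relatives were assigned is not given. No count is listed under miR-199b-3p, so the count of miR-199a-3p, and the ratio of the arms, may include reads of the Mir199b hairpin.

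The ratio of miR-214-3p to miR-199a-5p, which the Dnm3os transcript can both yield and which for miR-199a-5p includes any reads from Mir199a-1, did not overlap between the cKO groups. It was 0.658 and 0.443 in Dicer cKO sperm, 1.92, 0.917 and 1.56 in Drosha cKO sperm, and 1.47 and 0.562 in WT sperm. Every Drosha cKO library was above both Dicer cKO libraries, while WT replicate 1 lay within the Drosha cKO range and WT replicate 2 within the Dicer cKO range. In Drosha cKO replicates 2 and 3 the ratio rests on 11 and 14 reads of miR-214-3p, with 95% exact intervals of 0.366 to 2.27 and 0.627 to 4.07, so at this depth only replicate 1 (1.34 to 2.78) was separated from both Dicer cKO libraries (0.489 to 0.882 and 0.308 to 0.631).

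**Figure D3:**
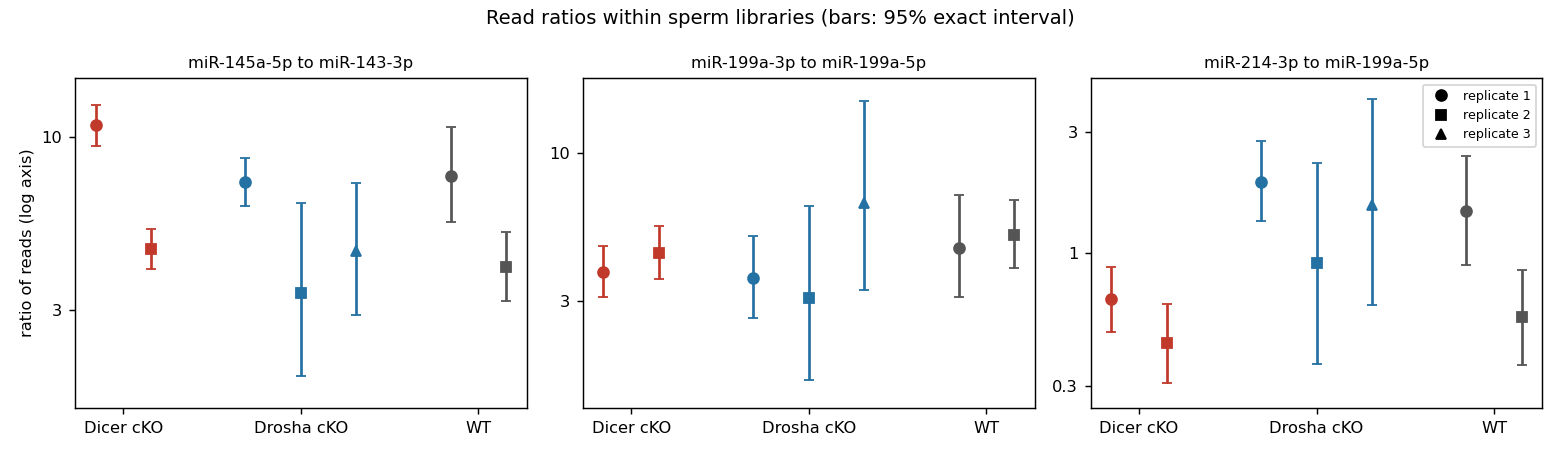
Read ratios within each sperm library on a log axis, with 95% exact intervals that cover counting error only; colours mark the groups and shapes the replicate numbers. The ratio of miR-145a-5p to miR-143-3p was highest in replicate 1 of each group, the ratio of the miR-199a arms lay between 3.08 and 6.67 in all libraries, and the ratio of miR-214-3p to miR-199a-5p was 0.443 and 0.658 in Dicer cKO sperm beside 0.917 to 1.92 in Drosha cKO sperm.

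The opposite arms were rare. miR-143-5p had 1 and 2 reads in Dicer cKO sperm, 5, 1 and 1 in Drosha cKO sperm, and 0 and 1 in WT sperm. miR-214-5p had 10 and 7 reads in Dicer cKO sperm, 5, 1 and 3 in Drosha cKO sperm, and 5 and 2 in WT sperm. miR-145a-3p, the passenger arm of miR-145a, had 9 reads in each Dicer cKO sperm library and 0 in every Drosha cKO and WT sperm library. The 2PN library from WT sperm had 1 read of it. In Drosha cKO replicate 1, 1224 reads of miR-145a-5p came with 0 of miR-145a-3p, whereas in Dicer cKO replicate 2, 1151 reads of miR-145a-5p came with 9. WT sperm had only 327 and 360 reads of miR-145a-5p, and Drosha cKO replicates 2 and 3 had 54 and 113. At that depth their 0 reads of miR-145a-3p say little. miR-145a-3p did not pass the expression filter, and its counts are given as a description with no test. miR-145b, a close relative of miR-145a, had 16 and 13 reads in Dicer cKO sperm, 12, 1 and 3 in Drosha cKO sperm, and 5 and 3 in WT sperm. Of these relatives 2 were tested, miR-145b and miR-199b-5p, and neither was called in any sperm comparison.

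Other miRNAs of connective tissue and vessels gave a mixed picture. Of 7 further stromal miRNAs tested, 2 rose in Dicer cKO sperm, none fell, and the median was 1.13; over all features 16.1% were called higher and 31% lower. miR-21a-5p, which is induced in activated fibroblasts and in many other cells, had 48273 and 57064 CPM in Dicer cKO sperm against 12497 and 10395 CPM in WT sperm (log2 change 1.52, edgeR adjusted p = 0.00747). The other was miR-125b-5p, a widely expressed somatic miRNA (1.41, edgeR adjusted p = 0.0147). Of the same list in Drosha cKO sperm 1 of the 7 rose, miR-125b-5p (1.05, edgeR adjusted p = 0.0371), and 3 fell: miR-22-3p (-1.51), miR-140-3p (-1.98) and miR-140-5p (-2.33), the last 2 being arms of a cartilage miRNA. Over all features 22.1% were called higher and 33.1% lower in that comparison, so the counts in this list of 7 are not read as particular to it. With library totals none of these 3 falls passed (edgeR adjusted p = 0.281, 0.235 and 0.0596), and with the authors' library divisor neither miR-21a-5p nor miR-125b-5p passed in any comparison with WT (edgeR adjusted p = 0.0540 to 0.797). The directions of the called changes held under each scaling. Both arms of miR-126a, the endothelial miRNA, rose in Dicer cKO sperm (2.08 and 2.57, edgeR adjusted p = 0.0260 and 0.0114), and 1 arm, miR-126a-5p, rose in Drosha cKO sperm (1.98, edgeR adjusted p = 0.0310). Of the striated muscle list 1 of 8 was tested, miR-1a-3p, which rose in Drosha cKO sperm (3.51, edgeR adjusted p = 0.00993) and not in Dicer cKO sperm (1.72, edgeR adjusted p = 0.181); without Drosha cKO replicate 1 the call in Drosha cKO sperm was lost (1.40, edgeR adjusted p = 0.175).

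Markers of other somatic cells also differed between the groups. For epithelium, the list held 5 miRNAs of the miR-200 group, with none at 0 in any sperm library. They summed to 13.0% and 16.0% of listed reads in Dicer cKO sperm, between 11.04% and 13.9% in Drosha cKO sperm, and 1.57% and 1.81% in WT sperm. All 5 rose in both cKO groups, with medians of 2.50 for Dicer and 1.84 for Drosha, although with the authors' library divisor none of the 5 passed for Drosha (edgeR adjusted p = 0.162 to 0.324). The red cell pair miR-451a and miR-144-3p, also above 0 in every sperm library, summed to 3.70% and 3.92% in Dicer cKO sperm, between 1.66% and 1.93% in Drosha cKO sperm, and 0.241% and 0.361% in WT sperm. The 5 leukocyte miRNAs summed to 1.12% and 1.32% in Dicer cKO sperm, between 0.434% and 0.558% in Drosha cKO sperm, and 0.164% and 0.272% in WT sperm, with at most 1 of them at 0 in a library. The leukocyte members did not move together: 2 of 5 rose and none fell in Dicer cKO sperm. In Drosha cKO sperm 2 rose, miR-150-5p (2.69) and miR-223-3p (2.01), and miR-142-5p fell (-2.68, edgeR adjusted p = 0.0277). Over all features 16.1% were called higher and 31% lower for Dicer, and 22.1% and 33.1% for Drosha. The leukocyte counts are therefore not read as particular to that list. Male germ cell miRNAs fell in the same libraries: all 10 were called lower in both cKO groups, so the reads against which each share is taken changed as well. The part of these changes in the values of miR-143-3p and miR-145a-5p was not tested.

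The members were also set against the epithelial, red cell and male germ cell lists within each library. Reads of the 5 members over reads of the epithelial list were 0.201 and 0.117 in Dicer cKO sperm, 0.148, 0.0778 and 0.126 in Drosha cKO sperm, and 0.506 and 0.174 in WT sperm. The second WT library lay within the range of the Dicer cKO libraries. Over reads of the red cell pair, the ratio was 0.665 and 0.506 in Dicer cKO sperm, 0.978, 0.653 and 0.720 in Drosha cKO sperm, and 2.20 and 1.31 in WT sperm, and the WT libraries were above every cKO library. Over reads of the male germ cell list the order was the opposite, with 3.05 and 2.10 in Dicer cKO sperm, 0.670, 0.751 and 0.727 in Drosha cKO sperm, and 0.0427 and 0.0187 in WT sperm. These ratios were not tested.

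Across the 7 sperm libraries the members did not follow a single pattern. Pearson's r of log2 CPM with TMM scaling, a description over libraries that share their depth and scaling, was 0.80 between miR-143-3p and miR-145a-5p and 0.76 between the miR-199a arms. Between miR-214-3p and the miR-199a arms it was -0.34 for 3p and -0.09 for 5p. The 3 features whose pattern was most like that of miR-143-3p were miR-144-5p (r = 0.98) and miR-451a (0.96), both from the red cell cluster, and miR-204-5p (0.95). For miR-145a-5p they were miR-125a-5p (0.96), miR-24-3p (0.95) and miR-99a-5p (0.94). For miR-199a-3p they were miR-29c-5p (0.94), miR-361-5p (0.86) and miR-29a-3p (0.84), for miR-199a-5p miR-365-3p (0.89), miR-338-3p (0.87) and miR-27a-3p (0.87), and for miR-214-3p miR-484 (0.96), miR-187-3p (0.84) and endo-siRNA-Sp527 (0.82). No member had another of the 5 among its closest 3.

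In 2PN embryos and oocytes the members were at or near the limit of detection, with the exception of miR-214-3p in the embryos from Drosha cKO and from WT sperm, where it had 10 reads each. Each of these groups is 1 library, so the values carry counting error only and no test between conditions was made. miR-143-3p and miR-199a-5p had 0 reads in all 4 libraries. For either, 0 reads allows up to 0.102% of listed reads in 2PN embryos from Dicer cKO sperm, 0.0335% from Drosha cKO sperm, 0.0925% from WT sperm, and 0.0542% in oocytes. In WT sperm miR-143-3p had shares of 0.0586% and 0.0319%, and miR-199a-5p of 0.0409% and 0.0229%. The limits in the embryos from Dicer cKO and from WT sperm lie above all 4 of these shares, the oocyte limit above all but the first of miR-143-3p, and the limit with Drosha cKO sperm above the second share of each miRNA, so such levels would not have been detectable there. miR-199a-3p had 1 read in the 2PN library from WT sperm and 0 in the other 3 libraries.

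miR-145a-5p had 4, 4 and 2 reads in 2PN embryos from Dicer cKO, Drosha cKO and WT sperm, and 4 reads in oocytes. As a share of listed reads this was 0.136% (95% exact interval 0.0369 to 0.347) with Dicer cKO sperm, 0.0446% (0.0122 to 0.114) with Drosha cKO sperm, 0.0617% (0.00747 to 0.223) with WT sperm, and 0.0723% (0.0197 to 0.185) in oocytes. All 4 intervals overlapped, and no difference was detectable at this depth.

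miR-214-3p had 1, 10 and 10 reads in 2PN embryos from Dicer cKO, Drosha cKO and WT sperm, and 2 reads in oocytes. Its share was 0.0339% (95% exact interval 0.000858 to 0.189) with Dicer cKO sperm, 0.112% (0.0535 to 0.205) with Drosha cKO sperm, 0.308% (0.148 to 0.566) with WT sperm, and 0.0362% (0.00438 to 0.131) in oocytes. It had rank 27 by reads among the rows of the 2PN library from WT sperm. Between 2PN embryos from WT sperm and oocytes the ratio of shares was 8.53 (exact counting interval 1.82 to 80.0). Between 2PN embryos from Dicer cKO and from WT sperm it was 0.110 (0.00253 to 0.772), and between those from Drosha cKO and from WT sperm 0.362 (0.135 to 0.968). The last of these turned into 0.713 with the authors' library divisor (0.266 to 1.91), an interval that includes 1. The other ratios were 6.52 for 2PN embryos from WT sperm over oocytes and 0.0577 for Dicer cKO over WT sperm on that scale. These intervals compare single libraries of a few reads and do not cover the spread between embryo collections.

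**Figure D4:**
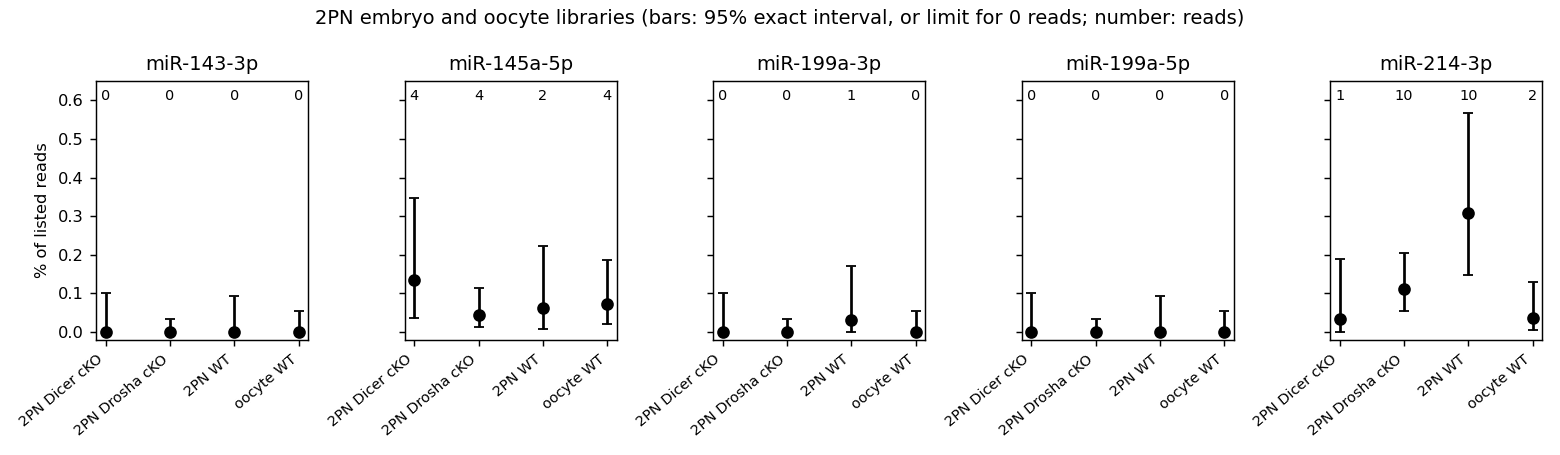
Share of listed reads of each miRNA in the 3 2PN libraries and the oocyte library, with 95% exact intervals, or for 0 reads a bar up to the limit of 3 reads, and the number of reads printed above each point. miR-143-3p and miR-199a-5p had 0 reads throughout, and miR-214-3p reached 0.308% in 2PN embryos from WT sperm, from 10 reads.

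In WT gametes side by side, miR-145a-5p took 0.0723% of listed reads in the oocyte library, from 4 reads, and 0.446% and 0.129% in the WT sperm libraries, from 327 and 360 reads. The ratio of shares was 0.162 (exact counting interval 0.0440 to 0.420) against the first WT sperm library and 0.560 (0.152 to 1.45) against the second. miR-199a-3p had 0 reads in the oocyte library against 139 and 329 reads in WT sperm. With the 0 set to the floor of 3 reads, it was 3.49-fold and 2.17-fold lower in oocytes. The exact counting intervals of this fold begin at 2.80 and 1.76. For miR-214-3p the ratio was 0.603 (0.0708 to 2.31) against the first WT sperm library and 2.80 (0.327 to 10.9) against the second, and both intervals include 1. The scale decides these values, because listed reads were a smaller part of the authors' library size in oocytes (0.489%) than in WT sperm (2.16% and 10.1%). With the authors' divisor the ratio of miR-145a-5p was 0.0368 and 0.0272 against the WT sperm libraries, and that of miR-214-3p was 0.137 (0.0161 to 0.524) and 0.136 (0.0159 to 0.529). On that scale miR-199a-3p, with the 0 again set to 3 reads, was 15.4-fold and 44.7-fold lower in oocytes.

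The same dependence held for 2PN embryos from WT sperm set against WT sperm itself. miR-214-3p took 0.308% of listed reads in these embryos, from 10 reads, and 0.0600% and 0.0129% in WT sperm, from 44 and 36 reads. As a share of listed reads it was 5.14 times (2.31 to 10.4) the first and 23.9 times (10.6 to 49.1) the second WT sperm library. With the authors' divisor the ratios were 0.892 (0.400 to 1.80) and 0.889 (0.393 to 1.83), with 11.5 RPM in the embryos and 12.9 and 13.0 RPM in WT sperm.

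The dependence of the sperm values on the processing is shown for both comparisons with WT. In Dicer cKO against WT sperm, miR-145a-5p and miR-143-3p were the pair farthest above the median of all features in the reported fit, and miR-214-3p was the nearest to it. In Drosha cKO against WT sperm no miRNA of the 5 passed under any alternative except library totals, where miR-143-3p and miR-145a-5p did.

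**Figure D5:**
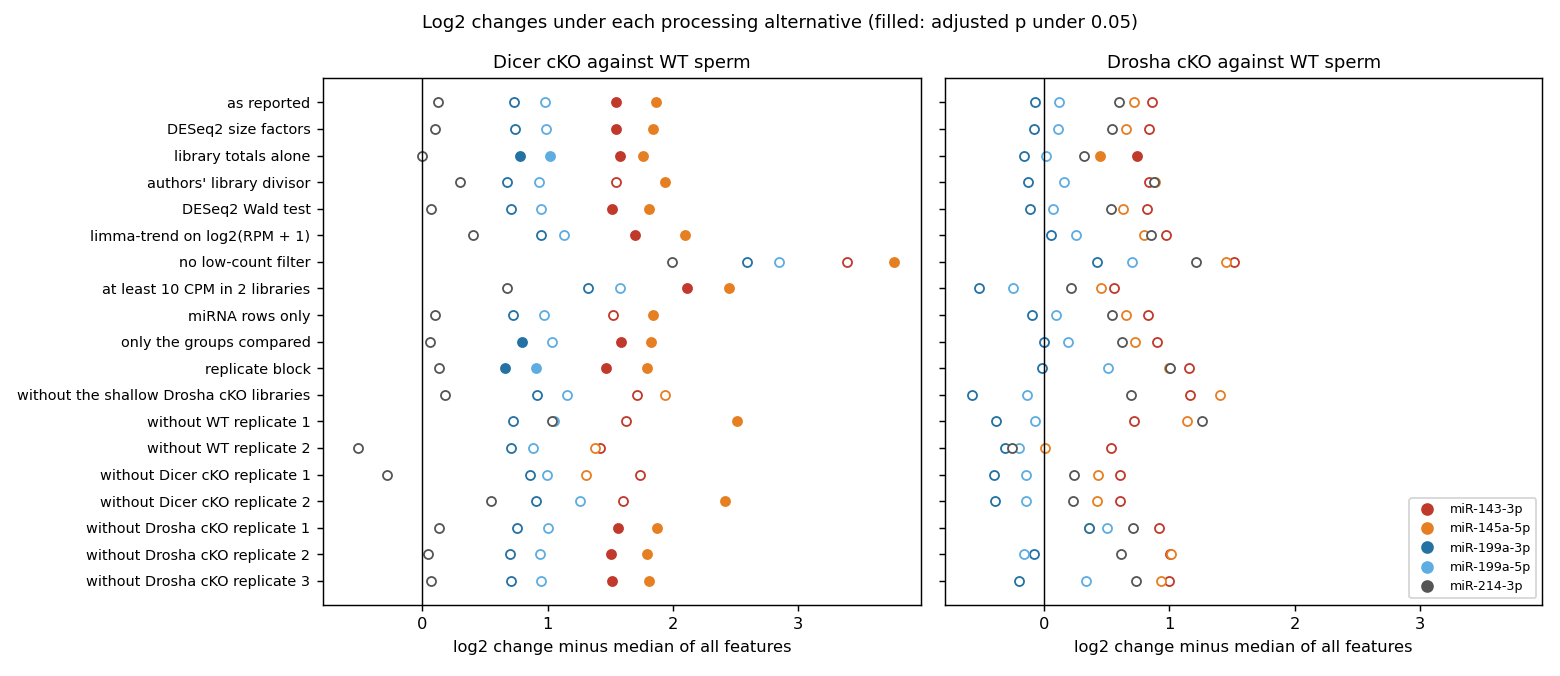
Log2 change of each miRNA minus the median log2 change of all features tested, under the reported fit and 18 alternatives (rows), for Dicer cKO against WT sperm on the left and Drosha cKO against WT sperm on the right; filled points passed an adjusted p of 0.05. In the Dicer comparison miR-145a-5p was called in 15 and miR-143-3p in 10 of the alternatives, and both stayed above 0 in all 18.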

How the data were processed

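Small RNA of 11 mouse libraries was analysed from 2 tables deposited by the authors, one of raw read counts per feature and one of RPM values. Per the submitters' processing notes, Bowtie and the build mm10 were used; the counting rule and the annotation release are not given. In the RPM table the authors had divided each count by 1 whole number per library (matched within 0.0054), and 100% of values came back as whole reads within 0.01 reads; the recovered reads are the deposited counts. Sperm libraries were compared with edgeR 4.0.16 in R 4.3.3 on the counts of all 7 sperm libraries (TMM factors 0.493 and 0.907 in WT, 1.05 to 1.31 in cKO sperm; default expression filter; quasi-likelihood test, two-sided; Benjamini-Hochberg adjustment over all 335 features; threshold 0.05). The SE is the log2 change over the root of its F statistic. The fit was tested on simulated data. Alternatives used DESeq2 1.42.0, limma 3.58.1 on log2(RPM + 1), other filters and scalings, a replicate block, and each sperm library left out. Read ratios, shares and exact (Clopper-Pearson) intervals used scipy 1.17.1; group means of log2 ratios added 0.5 reads to both counts. The 5 miRNAs are always named, with their relatives, the marker lists and the 3 closest features by pattern. The members and lists were chosen with earlier results of these data known. Sequences and gene spans are RefSeq's on GRCm38.p6; 3 of the 5 members were matched to a sequence. A genome of another build was not used here.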

Additional observations from a re-analysis of the deposited data

How the results depend on the processing

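Each sperm result was recomputed under 18 alternatives. The count of members called in Dicer cKO against WT sperm, 2, became 4 with library totals, 3 with only the groups compared, 4 with those groups and a replicate block, 1 with the authors' library divisor, without a low-count filter or with miRNA rows only, and 0 without the shallow Drosha cKO libraries; leaving out 1 library gave 0 to 2. In Drosha cKO against WT sperm the count of 0 became 2 with library totals, and was 0 in every fit that left out 1 library. Between Dicer cKO and Drosha cKO sperm it was 0, and 0 to 1 when a library was left out. Features called in Dicer cKO against WT sperm numbered 158 and stayed between 112 and 228. For Drosha cKO the 185 ranged from 112, without a low-count filter, to 223, with library totals. It was 124 with the authors' divisor, and 153 to 185 when a library was left out. Between the cKO groups the 0 became 13 with library totals, 1 with the authors' divisor or without a low-count filter, 16 with DESeq2, 2 with limma or a replicate block, 4 with at least 10 CPM in 2 libraries and 31 with only the groups compared; leaving out 1 library gave 0 to 36.

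Several changes that did not pass the test turned sign. For miR-214-3p in Dicer cKO against WT sperm the log2 change was -0.0193 with DESeq2 size factors, -0.0148 with the DESeq2 test, -0.11 with miRNA rows only, -0.22 without the shallow Drosha cKO libraries, and -0.90 to 0.98 when 1 library was left out. Between the cKO groups it was 0.34 with the authors' divisor, 0.34 with limma, 0.40 without a low-count filter, 0.35 with at least 10 CPM in 2 libraries, and -0.58 to 0.24 when 1 library was left out. In Drosha cKO against WT sperm, miR-199a-5p was -0.15 without a low-count filter, -0.0409 with at least 10 CPM in 2 libraries, -0.10 with miRNA rows only, -0.0931 with only the groups compared, -0.0121 with a replicate block, -0.53 without the shallow libraries, and -0.48 to 0.55 when 1 library was left out. There miR-199a-3p was 0.88 with library totals and -0.73 to 0.41 when 1 library was left out, miR-145a-5p -0.15 to 1.12 and miR-214-3p -0.41 to 1.03. The causes were not tested.

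Replicate numbers are shared by the sperm groups, and same-numbered libraries deviated together (correlations 0.181 to 0.312), but with 2 shared numbers per comparison and no label that ties them, they are not taken as pairs. The replicate block was fitted to the numbered libraries of the groups compared, so 2 choices changed together. In Dicer cKO against WT sperm it called 228 of 302 features, beside 198 of 302 in those groups without the block, with miR-199a-3p and miR-199a-5p among them (edgeR adjusted p = 0.00478 and 0.00708). Depth limits the embryo and oocyte values and Drosha cKO replicates 2 and 3, where 9 to 60 reads stood behind each member except miR-145a-5p in replicate 3 (113 reads).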
